A study of Mus musculus with 9 samples.

Results

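Imprinted genes outside the Mest locus were followed across 9 one-colour Agilent arrays of mouse embryonic stem (ES) cells and embryoid bodies. The set held 37 genes that are named as imprinted in the mouse, and each was looked for by the RefSeq accession that its probes carry. Of these, 35 had a probe, 34 were well above background on at least 1 array and 30 passed the filter for testing, out of 20660 named genes on the array and 15016 tested. H19 and Rian had no probe matched by accession in the gene table used and are not described; probes whose accession that table does not hold were not assigned to a gene. Among the 30 tested genes, 14 are classed as paternally and 15 as maternally expressed, from general knowledge of mouse imprinting. Gnas switches parent by transcript. Whether a gene is expressed from a single parental copy in these cells was not measured.

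The samples were a wild type ES line, a PKM1 knock-in line (PKm1KI in the labels) and a PKM2 knock-in line (PKm2KI), which carry knock-ins of one or the other splice form of pyruvate kinase M. Every line was measured on day 0 as undifferentiated cells grown with LIF, the cytokine that keeps mouse ES cells undifferentiated. It was measured again at day 3 and day 7 as embryoid bodies, floating aggregates that differentiate without LIF. There was 1 array per line and day, so a day was repeated only across the 3 lines, and a line only across the 3 days. The p-values below measure only the spread between these arrays, a genotype was represented by 1 line, and the arrays do not separate the 2 parental alleles.

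An imprinted gene is transcribed mainly from the copy inherited from one parent. The choice is set by DNA methylation that is laid down in egg or sperm at a control region of the cluster and then kept through early development by factors such as ZFP57 and TRIM28. Many imprinted genes act on fetal growth, placenta or brain, paternally expressed ones such as Igf2 often promoting growth and maternally expressed ones such as Cdkn1c and Igf2r often restraining it. Imprints of the Dlk1-Meg3 cluster are known to vary between mouse ES lines.

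Between 54.2 and 61.6 percent of spots were well above background on an array, none were saturated, and correlations between arrays ran from 0.892 to 0.984. Precision is limited by having 9 arrays. The PKM2 knock-in day 7 array stood apart from the other day 7 arrays and was alone on its slide. Its 12 pluripotency markers summed to a log2 signal of 19.01, within the day 0 range of 18.83 to 19.11, whereas the day 7 arrays of the wild type and PKM1 knock-in lines summed to 18.45 and 17.76. Of 15 markers of extraembryonic (visceral) endoderm, 15, 15 and 14 were well above background at day 7 in the wild type, PKM1 and PKM2 knock-in lines, against 8 to 12 on the day 0 and day 3 arrays. Afp, a defining gene of that tissue, was well above background at day 7 only, at log2 9.10, 17.70 and 6.30. Of 14 fibroblast and feeder markers, 13 were well above background on every day 0 array and 7 to 10 at day 3. At day 7 there were 11, 12 and 8 in the wild type, PKM1 and PKM2 knock-in lines. Because these are mixed cells in bulk, fewer cells of a type and less RNA per cell cannot be told apart. The main results that depend on the PKM2 knock-in day 7 array are given with and without it. The array was singled out from these same data, so a result that passes only without it is not independent support. Some smaller differences are given for all 9 arrays only.

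The sequences before 5 start sites are shown, for genes chosen from those described below. These are Plagl1 and Nnat for day 3, and Dlk1, Meg3 and Peg3 for day 7 and between lines. The differences between lines passed no test. Calcr changed more at day 3 and Igf2 more at day 7, and their sequences are not printed. The printed sequences come from RefSeq on build GRCm38.p6. They are the 250 bases before the most upstream start listed for the gene, 5′ to 3′ on its own strand. For Peg3, which starts back to back with Usp29, only the 163 bases between both starts are shown. Capitals mark GCGGCA, the reverse complement of TGCCGC, the letters that ZFP57 binds when methylated, and TGACGTCA, the palindromic cyclic AMP response element.
Plagl1 (chr10:13090582-13090831, + strand): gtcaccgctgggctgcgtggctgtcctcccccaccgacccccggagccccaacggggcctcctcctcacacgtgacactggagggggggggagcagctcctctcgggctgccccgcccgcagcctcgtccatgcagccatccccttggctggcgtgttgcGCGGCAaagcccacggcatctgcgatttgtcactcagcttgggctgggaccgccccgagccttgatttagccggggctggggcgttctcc
Nnat (chr2:157559828-157560077, + strand): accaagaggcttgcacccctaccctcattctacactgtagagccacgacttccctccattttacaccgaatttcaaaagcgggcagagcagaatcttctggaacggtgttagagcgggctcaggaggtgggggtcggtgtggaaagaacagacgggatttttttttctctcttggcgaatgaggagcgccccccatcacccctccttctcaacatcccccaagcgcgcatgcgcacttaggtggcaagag
Dlk1 (chr12:109452573-109452822, + strand): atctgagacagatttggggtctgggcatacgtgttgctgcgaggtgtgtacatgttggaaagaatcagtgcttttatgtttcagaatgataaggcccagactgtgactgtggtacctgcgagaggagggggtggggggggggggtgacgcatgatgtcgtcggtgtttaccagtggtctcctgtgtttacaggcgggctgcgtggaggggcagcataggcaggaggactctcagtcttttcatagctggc
Meg3 (chr12:109540746-109540995, + strand): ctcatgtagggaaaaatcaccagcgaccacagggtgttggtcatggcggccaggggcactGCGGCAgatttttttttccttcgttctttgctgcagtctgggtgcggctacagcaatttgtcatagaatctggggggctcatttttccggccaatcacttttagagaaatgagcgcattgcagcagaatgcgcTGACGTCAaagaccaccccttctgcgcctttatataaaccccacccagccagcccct
Peg3 (chr7:6730420-6730582, - strand): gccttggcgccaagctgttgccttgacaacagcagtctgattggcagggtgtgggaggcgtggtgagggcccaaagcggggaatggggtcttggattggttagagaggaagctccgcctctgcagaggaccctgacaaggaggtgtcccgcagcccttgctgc
Plagl1 and Meg3 each held the ZFP57 letters once, and Meg3 also held the cyclic AMP element; the printed stretches of Nnat, Dlk1 and Peg3 held neither. TGCCGC on either strand was found in 8.68 percent of all 32851 promoter stretches of the same length and in 5 of 45 (11.1 percent) of those listed for 31 of the genes studied. TGACGTCA was found in 1.55 percent of all and in 2 of the 45, those of Meg3 and Peg3, the latter beyond the start of Usp29 and therefore not printed. The genes' stretches held a median of 10 CpG pairs, against 6 over all. These are letter matches only.

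Levels are given as log2 scaled signal, in which each array's processed signal was scaled so that its 75th percentile was the same on all arrays. A value of 2.32 is the floor, and levels of different genes are not comparable because each probe has its own brightness. Changes are log2 differences from an additive limma fit of line and day to all 9 arrays, given with the standard error of the fit, and a gene was called when its p-value adjusted by Benjamini-Hochberg over all 15016 genes was under 0.05. The comparisons of days share arrays with one another, as do those of lines.

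Levels of the imprinted genes ranged more widely across the 9 arrays than those of genes in general. Their median range was 2.16, against 1.38 for all genes tested, and 17 of 30 (56.7 percent) spanned at least 2 log2 units, against 28.5 percent. The paternally expressed genes had a median range of 2.44 and the maternally expressed ones 2.09. The highest array was the PKM1 knock-in day 7 array for 9 of 30 members (30 percent, against 17.3 percent of all genes) and the wild type day 7 array for 6 (20 percent, against 7.54 percent). It was never the wild type day 3 array, which was highest for 17.5 percent of all genes. The wild type day 3, PKM1 knock-in day 3 and PKM2 knock-in day 7 arrays were each lowest for 6 members (20 percent). The shares of all genes lowest there were 10.9, 8.01 and 7.34 percent.

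**Figure D1:**
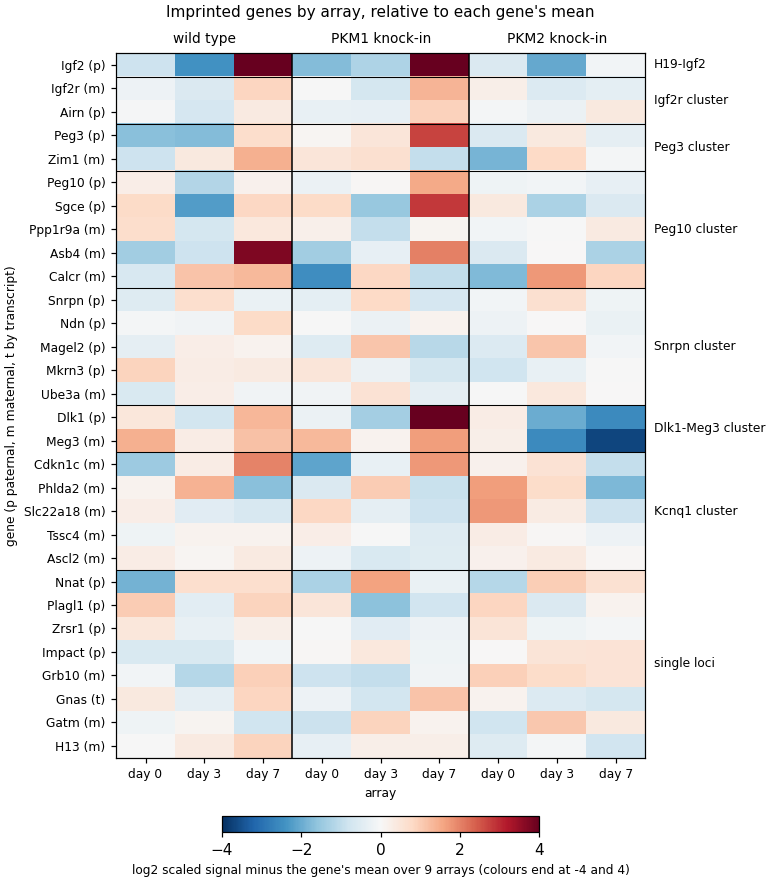
Log2 scaled signal of the 30 tested imprinted genes (rows, grouped by cluster, with the parental class in brackets) on the 9 arrays (columns, by line and day), minus each gene's own mean. Igf2, Peg3, Sgce, Dlk1 and Asb4 are red at day 7 of the wild type or PKM1 knock-in line and not of the PKM2 knock-in line, and Meg3 is dark blue in PKM2 knock-in cells at days 3 and 7, where it read 9.51 and 8.37.

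Day 3 was set against day 0 to find imprinted genes that moved alike in the early embryoid bodies of every line. Calcr, Nnat and Snrpn rose and Plagl1 fell, 4 of the 30 tested (13.3 percent), against 4.05 percent of all genes called in this comparison (608, of which 278 were higher). At p under 0.05 before adjustment there were 11 of 30 (36.7 percent), against 26.4 percent of all genes. The other members divided between both directions: in all, 13 of 30 read higher and 17 lower, with a median of -0.10 against 0.09 over all genes.

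Calcr, the calcitonin receptor gene of the Peg10 cluster, read 6.02, 7.80 and 7.93 at days 0, 3 and 7 in wild type cells, 4.15, 7.49 and 5.67 in PKM1 knock-in cells, and 4.87, 8.39 and 7.50 in PKM2 knock-in cells. All day 3 arrays lay above all day 0 arrays, and the PKM1 knock-in day 0 array was not well above background. The change at day 3 was 2.88 ± 0.42 (SE, n = 3 lines, 7.37-fold, limma adjusted p = 0.0291). At day 7 the difference from day 0 was 2.02 ± 0.42 (adjusted p = 0.162) and did not pass. Nnat, which encodes neuronatin, a small membrane protein of the endoplasmic reticulum abundant in developing brain, read 6.73, 9.29 and 9.29 in wild type cells, 7.35, 10.23 and 8.33 in PKM1 knock-in cells, and 7.46, 9.58 and 9.22 in PKM2 knock-in cells. Its days 0 and 3 did not overlap either, and it rose by 2.52 ± 0.38 (5.74-fold, adjusted p = 0.0309, higher in 3 of 3 lines). A second Nnat probe differed by 2.53.

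Snrpn encodes a spliceosome protein that takes the place of SNRPB in neurons. Its level was 10.92, 12.13 and 11.18 in wild type cells, 11.07, 12.26 and 10.78 in PKM1 knock-in cells, and 11.33, 12.09 and 11.28 in PKM2 knock-in cells. The day 3 arrays stood above both other days in every line, by 1.05 ± 0.21 over day 0 (2.07-fold, adjusted p = 0.0491). Its other 2 probes, well above background on all arrays, differed less, by 0.63 and 0.71. The difference of day 7 from day 3 was -1.08 (adjusted p = 0.0759). Plagl1, a zinc finger factor that can stop the cell cycle, went the other way. It read 12.57, 11.11 and 12.44 in wild type cells, 12.02, 9.91 and 10.78 in PKM1 knock-in cells, and 12.39, 10.97 and 11.67 in PKM2 knock-in cells. The day 0 arrays all lay above the day 3 arrays, and Plagl1 fell by 1.67 ± 0.25 on the log2 scale (3.17-fold, adjusted p = 0.0309). A second bright Plagl1 probe differed by -1.68, while its 2 dim probes differed by -0.22 and -0.61.

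**Figure D2:**
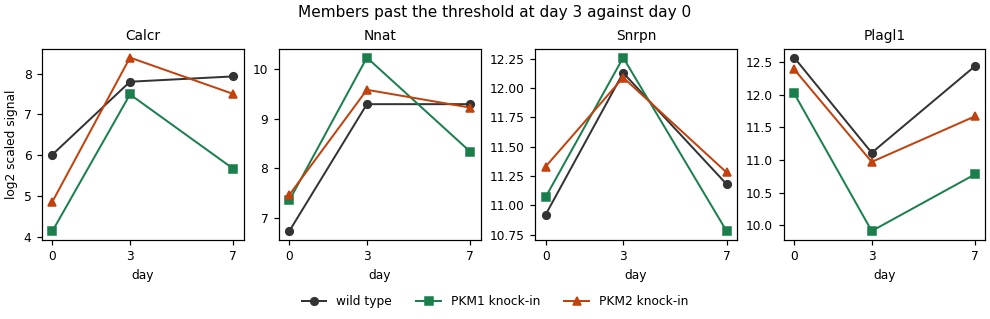
Log2 scaled signal (vertical axes, each panel with its own range) of the 4 imprinted genes called at day 3 against day 0, by day (horizontal axes), 1 point per array and 1 line per cell line. Calcr, Nnat and Snrpn are higher and Plagl1 is lower at day 3 in each of the 3 lines.

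These 4 calls rest on few arrays. With the slide as a block, a fit that loses the PKM2 knock-in day 7 array, Calcr (adjusted p = 0.026) and Nnat (0.0426) passed and Plagl1 (0.0525) and Snrpn (0.0761) did not, 2 of 30 beside 3.82 percent of all genes. There were 2 called without the line term, beside 3.15 percent of all genes, and 0 without the filter on dim probes, beside 0.605 percent. Leaving out any 1 of the 6 arrays of day 0 and day 3 left no member called, and between 0 and 137 of all genes; without the wild type day 7 array 2 members were called beside 1.11 percent of all genes, and without the PKM1 knock-in day 7 array 5 beside 5.91 percent. Without the PKM2 knock-in day 7 array 6 members were called (20 percent, against 8.77 percent of all genes), these 4 with Sgce and Slc22a18 lower. Within slide 1, which held both arrays of the PKM2 knock-in line, the day 3 differences were 3.52 for Calcr, 2.12 for Nnat, 0.76 for Snrpn and -1.42 for Plagl1. Over the same days all 13 tested fibroblast and feeder markers read lower, 6 of them called, with a median of -2.68 and summed log2 levels of 12.47 to 14.31 at day 0 and 9.84 to 10.98 at day 3. Decorin (Dcn), of connective tissue, fell by 6.19 ± 1.09 (adjusted p = 0.0392). The part of these cells' RNA in the differences of the imprinted genes was not tested.

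In the Snrpn cluster, the neuronal genes of the Prader-Willi and Angelman region, the median change at day 3 was 0.68. Magel2, a MAGE family gene that regulates ubiquitin ligases, read 8.41, 9.05 and 8.93 in wild type cells, 8.25, 9.88 and 7.66 in PKM1 knock-in cells, and 8.24, 9.88 and 8.68 in PKM2 knock-in cells. It peaked at day 3 in each line as Snrpn did, 1.31 ± 0.39 over day 0, and did not pass (adjusted p = 0.104). Ube3a, a ubiquitin ligase expressed from the maternal copy in neurons, lay between 8.44 and 9.63 with a day 3 difference of 0.68 (adjusted p = 0.112, higher in 3 of 3 lines). Ndn, a growth-restraining relative of Magel2, varied least in the cluster, between 8.02 and 9.04. Mkrn3, a ubiquitin ligase known for holding back puberty, ran from 7.45 to 9.13. It differed between the PKM2 knock-in and the wild type line by -0.88 (adjusted p = 0.373), or by -1.24 ± 0.35 without the PKM2 knock-in day 7 array (limma adjusted p = 0.276).

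In the Dlk1-Meg3 cluster the noncoding RNAs were lowest in the PKM2 knock-in line. Meg3, the noncoding RNA made from the maternal chromosome, read 13.47, 12.34 and 13.24 at days 0, 3 and 7 in wild type cells and 13.34, 12.20 and 13.71 in PKM1 knock-in cells, but 12.30, 9.51 and 8.37 in PKM2 knock-in cells. On this brightest probe the PKM2 knock-in arrays of days 3 and 7 lay below every other array, and at each day this line was the lowest. A dimmer probe read 8.35 at day 0 in PKM2 knock-in cells and 8.29 in PKM1 knock-in cells, so there that line was not the lowest. On the brightest probe Meg3 in PKM2 knock-in cells differed from wild type by -1.17, -2.83 and -4.87 at days 0, 3 and 7. Averaged over days the difference was -2.96 ± 0.76 (SE, n = 3 days, 7.75-fold lower), which did not pass (limma adjusted p = 0.185), and against the PKM1 knock-in line it was -3.02 ± 0.76 (adjusted p = 0.599). Its other probes differed from wild type by -2.74 and -2.78, 1 of them not well above background on the PKM2 knock-in day 7 array. Among the arrays of slide 1, the PKM2 knock-in cells dropped by 2.79 from day 0 to day 3, and its day 3 difference from the PKM1 knock-in line was -2.69. Without the PKM2 knock-in day 7 array the difference from wild type was -1.90 ± 0.45 (3.72-fold lower, adjusted p = 0.236), and with the slide as a block it was -1.85. The PKM2 knock-in line also read lower for 12 of 13 tested fibroblast and feeder markers against wild type. Their median was -1.23 (-0.67, -0.6 and -1.93 at days 0, 3 and 7). Against the PKM1 knock-in line all 13 were lower, with a median of -0.79, and none was called in either comparison. The part of these cells' RNA in the line differences of this cluster was not tested.

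Mirg, a second maternally expressed noncoding RNA of the cluster that hosts microRNAs and belongs to the list of other imprinted genes, gave 12.76, 11.23 and 11.81 in wild type cells, 12.29, 11.44 and 11.89 in PKM1 knock-in cells, and 10.91, 8.57 and 6.63 in PKM2 knock-in cells. The PKM2 knock-in line was again the lowest on every day, and the mean difference from wild type was -3.23 ± 0.71 (adjusted p = 0.14), or -2.22 ± 0.36 without the PKM2 knock-in day 7 array (adjusted p = 0.203). Dlk1, the paternally expressed gene at the other end, encodes a membrane protein related to Notch ligands that marks progenitor cells. It read 9.73, 8.55 and 10.62 in wild type cells, 9.06, 7.91 and 14.06 in PKM1 knock-in cells, and 9.58, 7.30 and 6.74 in PKM2 knock-in cells. The PKM1 knock-in day 7 array was the highest and the PKM2 knock-in day 7 array the lowest of the 9, a span of 7.32 log2 units. A dimmer Dlk1 probe was also highest in PKM1 knock-in cells at day 7, at 11.28, and was not well above background in PKM2 knock-in cells at days 3 and 7. The PKM2 knock-in line differed from wild type by -1.76 ± 1.36 and from the PKM1 knock-in line by -2.47 ± 1.36 with all arrays (adjusted p = 0.62 and 0.651), and by -0.02 ± 1.0 and -0.73 ± 1.0 without the PKM2 knock-in day 7 array (adjusted p = 0.998 and 0.928). The day 7 difference from day 3 was 2.55 ± 1.36 over the 3 lines (adjusted p = 0.247) and 4.29 ± 1.0 without the PKM2 knock-in day 7 array (adjusted p = 0.0418).

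**Figure D3:**
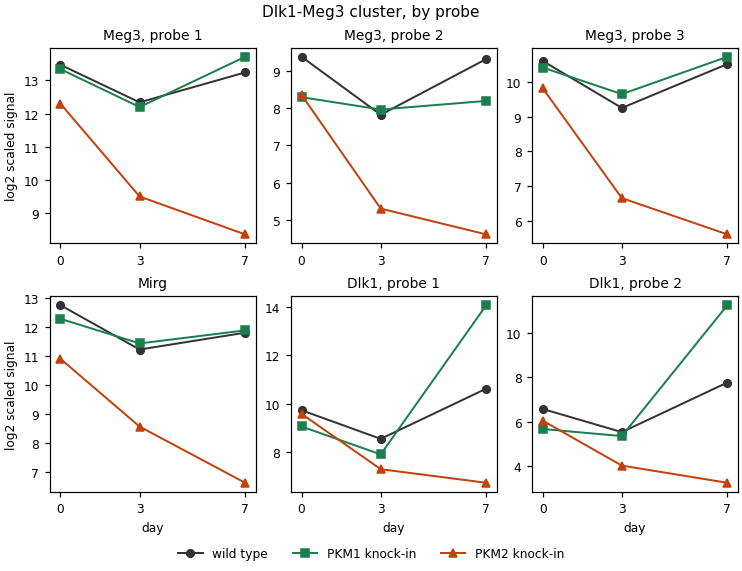
Log2 scaled signal (vertical axes, each panel with its own range) by day (horizontal axes) for the 3 probes of Meg3, for Mirg and for the 2 probes of Dlk1, 1 point per array and 1 line per cell line. All Meg3 probes and Mirg are lowest in PKM2 knock-in cells at days 3 and 7, where the brightest Meg3 probe read 9.51 and 8.37, and Dlk1 is highest in PKM1 knock-in cells at day 7.

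At day 7 no member passed the test against day 0, beside 0.0999 percent of all genes (15 of 15016), and none against day 3, where 0 percent of all genes were called. At an unadjusted limma p under 0.05 there were 8 and 10 members, and 2154 and 4561 of all genes. The lines did not move together: the median of the 30 members against day 3 was 0.89 in wild type cells, 0.31 in PKM1 knock-in cells and -0.34 in PKM2 knock-in cells. Without the PKM2 knock-in day 7 array, which leaves 2 arrays at day 7, 4 members passed against day 0 (Igf2, Asb4, Cdkn1c and Peg3, all higher) beside 1.29 percent of all genes. Against day 3, 11 of 30 (36.7 percent) passed beside 17.2 percent of all genes. These were Igf2, Dlk1, Sgce, Asb4, Peg3, Cdkn1c, Igf2r, Gnas, Grb10 and Airn higher and Snrpn lower. With the slide as a block, which also loses that array, 7 passed, beside 6.89 percent. Leaving out any other single array left no member called in either comparison. The array left out was the lowest at day 7 for Igf2, Asb4, Cdkn1c and Peg3, so its omission narrows their spread.

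Igf2, the paternally expressed fetal growth factor, read 4.44, 2.85 and 9.34 in wild type cells, 3.51, 4.02 and 10.11 in PKM1 knock-in cells, and 4.68, 3.21 and 5.16 in PKM2 knock-in cells. It was well above background on all day 7 arrays, on no day 3 array and on 2 of 3 at day 0, and both high values were the day 7 arrays of the wild type and PKM1 knock-in lines. Averaged over the 3 lines it was at least 15.6-fold higher at day 7 than at day 3, with a limma adjusted p of 0.0826. This was counted against the lowest signal well above background on the day 3 arrays. The bound does not hold in each line: in PKM2 knock-in cells day 7 read 5.16, and that lowest signal on their day 3 array was 4.38. Igf2 passed without the PKM2 knock-in day 7 array (limma adjusted p = 0.00693). Against day 0 the adjusted p was 0.212 over the 3 lines and 0.03 without that array. Within its own slide the wild type line was higher at day 7 than at day 0 by 4.89; the PKM1 knock-in day 0 array was not well above background, so its difference is only bounded. The same arrays held the most Afp, a marker added after its values were seen. Averaged over the 3 lines, all 14 tested extraembryonic endoderm markers read higher at day 7 than at day 0. Their median was 4.74 and none was called by limma. Summed, their log2 level at day 7 was 16.42 in wild type, 19.33 in PKM1 and 16.86 in PKM2 knock-in cells. The wild type sum was thus below that of PKM2 knock-in cells, unlike Igf2, and below its own day 0 (16.48). Marker by marker, the median day 7 difference of the PKM2 knock-in from the wild type line was -1.03. Of 13 tested fibroblast and feeder markers, 11 read higher at day 7 than at day 3, with a median of 1.94 and none called. By line their medians were 2.14 (wild type), 2.20 (PKM1 knock-in) and 0.04 (PKM2 knock-in). The part of either marker set in the level of Igf2 and of the other members at day 7 was not tested.

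Igf2r, the receptor that carries IGF2 to the lysosome and is maternally expressed, read 10.45, 10.10 and 11.52 in wild type cells, 10.64, 9.95 and 12.03 in PKM1 knock-in cells, and 10.89, 10.13 and 10.26 in PKM2 knock-in cells. It was highest on the same 2 arrays as Igf2 and differed from day 3 by 1.21 ± 0.42 (adjusted p = 0.122), or by 1.79 ± 0.24 without the PKM2 knock-in day 7 array (adjusted p = 0.0171). Airn, the paternal noncoding RNA that overlaps Igf2r and silences it in cis, lay between 8.62 and 10.23 and was higher at day 7 than at day 3 in 3 of 3 lines, by 0.97 ± 0.24 (adjusted p = 0.0853). Both members of this opposite pair were thus at their highest on the PKM1 knock-in day 7 array. The organic cation transporter genes of the cluster were dim: Slc22a3 was well above background on no array, and Slc22a2 on the PKM1 knock-in day 7 array alone, at 6.11, with the other 8 arrays between 2.32 and 2.52.

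The Kcnq1 cluster held members with opposite courses. Cdkn1c, which encodes the cell cycle inhibitor p57, read 9.06, 10.80 and 12.51 in wild type cells and 8.40, 10.23 and 12.26 in PKM1 knock-in cells, and 10.69, 11.10 and 9.56 in PKM2 knock-in cells. It climbed through both steps in the wild type and PKM1 knock-in lines, whereas in PKM2 knock-in cells day 7 was its lowest level. Over the 3 lines day 7 differed from day 0 by 2.05 ± 0.92 (4.15-fold, adjusted p = 0.374), which did not pass, and without that array by 3.42 ± 0.38 (10.7-fold, adjusted p = 0.0316). Phlda2, a restraint on placental growth, read 8.73, 9.98 and 6.93 in wild type cells, 8.0, 9.62 and 7.69 in PKM1 knock-in cells, and 10.25, 9.34 and 6.78 in PKM2 knock-in cells. Day 7 was the lowest day in all 3 lines, with a difference of -2.51 ± 0.59 from day 3 (adjusted p = 0.0835).

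Slc22a18, an organic cation transporter-like gene next to Phlda2, read 8.14, 7.43 and 7.26 in wild type cells, 8.70, 7.52 and 7.07 in PKM1 knock-in cells, and 9.61, 8.20 and 7.05 in PKM2 knock-in cells. Its level was lower at each step in every line, and day 7 differed from day 0 by -1.69 ± 0.32 (adjusted p = 0.142). It passed at day 3 only without the PKM2 knock-in day 7 array (-1.10 ± 0.23, adjusted p = 0.0436). Tssc4, linked to spliceosome assembly, and Ascl2, a basic helix-loop-helix factor of trophoblast, varied little, between 11.20 and 12.00 and between 8.93 and 9.91. Kcnq1, the potassium channel gene, was well above background on 1 array, the PKM2 knock-in day 3 array, at 4.98, with 3.97 at day 0 of that line and 2.32 to 2.46 on the others.

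In the Peg3 cluster, Peg3 itself, a paternally expressed zinc finger gene, read 7.59, 7.53 and 9.99 in wild type cells, 9.35, 9.75 and 11.99 in PKM1 knock-in cells, and 8.70, 9.68 and 8.91 in PKM2 knock-in cells. On each day the PKM1 knock-in line lay above the wild type line, by 1.76, 2.22 and 2.0, with a mean of 1.99 ± 0.62 (3.98-fold) that did not pass (adjusted p = 0.278). A second Peg3 probe differed by 2.31. The PKM2 knock-in line was also above wild type at days 0 and 3, by 1.10 and 2.16, and differed by -1.09 at day 7. Its mean difference was 0.72 ± 0.62 (limma adjusted p = 0.652), or 1.63 ± 0.28 without its day 7 array (adjusted p = 0.215). At day 7 Peg3 was higher than at day 0 by 2.40 and 2.64 in the wild type and PKM1 knock-in lines and by 0.21 in PKM2 knock-in cells. Over the 3 lines this was 1.75 ± 0.62 (3.36-fold, adjusted p = 0.286). Without the last array the difference of 2.66 ± 0.28 passed (6.30-fold, adjusted p = 0.0316). Usp29, the deubiquitinase gene whose start faces that of Peg3, was well above background only at day 7 of the wild type line (4.92) and of the PKM1 knock-in line (5.47), the 2 arrays on which Peg3 was highest; the other arrays lay between 2.32 and 2.99. Zim1, a maternally expressed zinc finger gene, was close to background, at 3.95, 5.18 and 6.22 in wild type cells, 5.26, 5.42 and 3.83 in PKM1 knock-in cells, and 2.93, 5.59 and 4.70 in PKM2 knock-in cells, and was well above background on 5 arrays.

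The Peg10 cluster has paternally expressed Peg10 and Sgce beside maternally expressed Asb4, Calcr and Ppp1r9a. Sgce, which encodes the membrane protein epsilon-sarcoglycan, read 9.13, 6.15 and 9.19 in wild type cells, 9.14, 6.86 and 11.21 in PKM1 knock-in cells, and 8.76, 7.10 and 7.79 in PKM2 knock-in cells. Day 3 was its lowest day in every line, -2.31 ± 0.67 from day 0 (adjusted p = 0.100), and day 7 was higher than day 3 by 2.70 ± 0.67 (adjusted p = 0.0864). Without the PKM2 knock-in day 7 array both differences passed, at adjusted p = 0.0373 and 0.0195. Peg10, a retrotransposon-derived gene needed for placenta, shares a promoter region with Sgce and read 8.01, 6.57 and 7.94 in wild type cells, 7.53, 7.80 and 9.28 in PKM1 knock-in cells, and 7.58, 7.65 and 7.44 in PKM2 knock-in cells. Its day 3 level was low in wild type cells alone, so the course of Sgce was seen for Peg10 in 1 of 3 lines. Asb4, a ubiquitin ligase adaptor of vascular and placental cells, read 4.14, 4.72 and 9.28 in wild type cells, 4.13, 5.20 and 7.56 in PKM1 knock-in cells, and 4.94, 5.56 and 4.27 in PKM2 knock-in cells. It was highest at day 7 of the wild type and PKM1 knock-in lines, and was not well above background at day 0 of these lines or at day 7 of the PKM2 knock-in line, so folds against those arrays are only bounded. Day 7 differed from day 0 with an adjusted p of 0.349 over the 3 lines (2.64 ± 1.1) and of 0.0344 without the PKM2 knock-in day 7 array (4.25 ± 0.50). A dimmer Asb4 probe stayed between 3.92 and 4.99. Ppp1r9a, the actin-binding neurabin, lay between 9.54 and 11.20.

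Among the loci that stand alone, Grb10, an adaptor that dampens insulin receptor signalling, read 9.85, 8.83 and 10.90 in wild type cells, 9.12, 9.0 and 9.81 in PKM1 knock-in cells, and 10.92, 10.70 and 10.52 in PKM2 knock-in cells. The PKM2 knock-in line was above the PKM1 knock-in line on 3 of 3 days, by 1.40 ± 0.41 (adjusted p = 0.638). Without the PKM2 knock-in day 7 array the difference was 1.88 ± 0.33 (limma adjusted p = 0.817). Gnas, the locus of the stimulatory G protein subunit, ranged from 12.58 to 14.46 for its brightest probe, highest at day 7 in the wild type and PKM1 knock-in lines, and from 5.16 to 6.04 for another; which of its transcripts each probe measures was not determined. Zrsr1, a splicing factor gene, lay between 9.55 and 10.53. Impact, a regulator of translation, lay between 12.60 and 13.75 and was higher in the PKM2 knock-in than in wild type cells by 0.80 ± 0.25 (adjusted p = 0.257). H13, the signal peptide peptidase gene, lay between 10.54 and 12.20 for its brightest probe; its 4 probes did not move alike, with differences between the PKM2 knock-in and wild type lines of -0.86, -1.19 and -1.25 for the 3 brighter probes and 0.81 for the dimmest. Gatm, of creatine synthesis, stayed near background, between 3.56 and 5.48. Rasgrf1, a Ras exchange factor, was well above background on the wild type day 0 array (4.79) and the PKM1 knock-in day 7 array (5.94), and read 2.32 to 3.68 elsewhere.

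**Figure D4:**
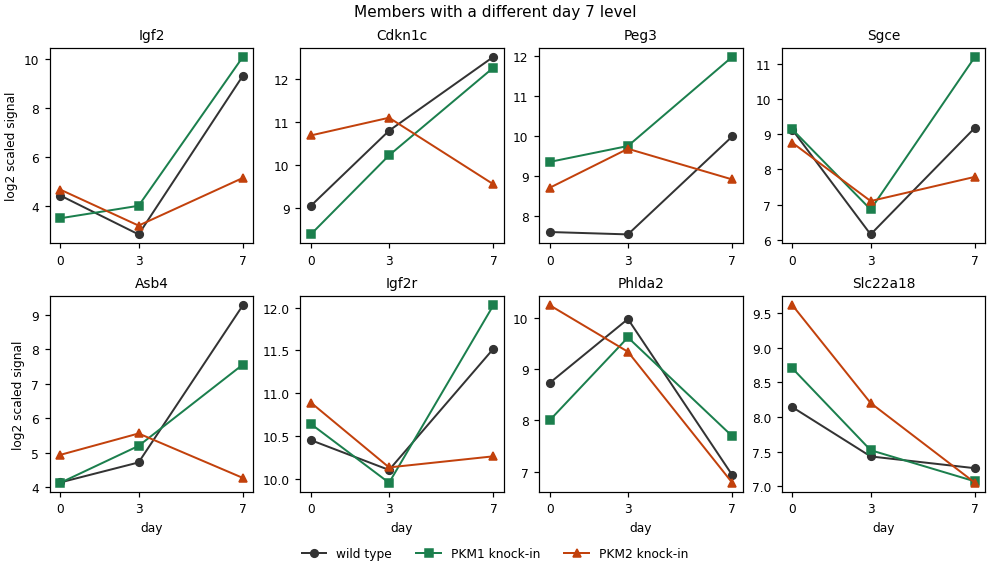
Log2 scaled signal (vertical axes, each panel with its own range) by day (horizontal axes) for 8 imprinted genes, 1 point per array and 1 line per cell line. Igf2, Cdkn1c, Peg3, Asb4 and Igf2r are high at day 7 of the wild type and PKM1 knock-in lines and not of the PKM2 knock-in line. Sgce is high at day 7 of the PKM1 knock-in line (11.21), and in wild type cells its day 7 level (9.19) is near that of day 0 (9.13). Phlda2 and Slc22a18 are lowest at day 7 in all 3 lines.

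Between the lines no member passed in any of the 3 comparisons. The share of all genes called was 0.0133 percent for the PKM1 knock-in against the wild type line, 0.0133 percent for the PKM2 knock-in against the wild type line, and 0 percent for the PKM2 against the PKM1 knock-in line. At an unadjusted limma p under 0.05 there were 4, 4 and 5 of 30 members, 13.3, 13.3 and 16.7 percent, against 12.1, 13.3 and 7.77 percent of all genes. Beside Meg3 and Grb10, given above, the members with the smallest p were Plagl1, Calcr and Ascl2 in the PKM1 knock-in against the wild type line. They differed by -1.13 ± 0.25 (adjusted p = 0.181), -1.48 ± 0.42 (adjusted p = 0.248) and -0.67 ± 0.20 (adjusted p = 0.27), lower on 3 of 3 days each.

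Paternally and maternally expressed genes were then set against each other by the median change of each class. The classes come from general knowledge of imprinting and were not measured in these cells. From day 0 to day 3 the median was -0.27 over the 14 paternally and 0.45 over the 15 maternally expressed genes, a difference of -0.73, but line by line it was -0.94 in the wild type and -0.04 in each knock-in line. From day 3 to day 7 the medians were 0.60 and -0.05. Here the difference of 0.65 was of one sign in all lines, 0.41, 0.62 and 0.59 (SD 0.12, n = 3 lines), with 9 of 14 paternally and 7 of 15 maternally expressed genes higher, and it was 0.29 with genes well above background on all 9 arrays. Over day 0 to day 7 it was -0.06 for the fitted changes, and -0.01, 0.18 and 0.48 line by line (SD 0.25). A difference of medians need not lie between the values of the lines. Between lines the differences were 0.49 (PKM1 knock-in against wild type, SD 0.33 over 3 days), 0.06 (PKM2 knock-in against wild type, SD 0.29) and -0.24 (PKM2 against PKM1 knock-in, SD 0.12). Wide spans were found in both classes: among genes well above background on all 9 arrays Dlk1 (7.32) and Sgce (5.07) are paternally and Meg3 (5.34) is maternally expressed.

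**Figure D5:**
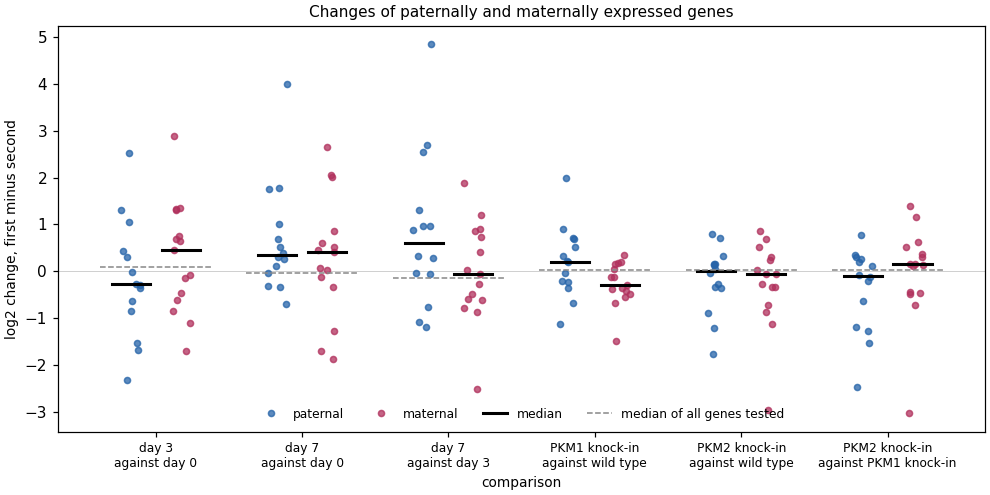
Fitted log2 change (vertical axis) of each tested paternally (14, blue) and maternally (15, red) expressed gene in the 6 comparisons (horizontal axis), with the median of each class as a black bar and that of all 15016 genes as a dashed line. The classes overlap in every comparison, and the medians are farthest apart at day 3 against day 0 (-0.27 and 0.45) and at day 7 against day 3 (0.60 and -0.05).

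Other imprinted genes and the machinery around them gave the setting. Of all genes tested, 57.2 percent read higher at day 3 and 46.5 percent at day 7 than at day 0, and 41.4 percent at day 7 than at day 3. The share of all genes called at day 3 was 4.05 percent. Of 21 other imprinted genes tested, 1 was called at day 3, Trappc9, a trafficking complex gene, which fell by 1.01 (adjusted p = 0.0469), and 0 in the other 5 comparisons. Nap1l5, a paternally expressed nucleosome assembly protein gene, had the smallest p between lines: it read 2.32, 2.97 and 2.50 in wild type cells, not well above background throughout, 4.84, 6.37 and 4.40 in PKM1 knock-in cells, and 4.40, 6.38 and 6.10 in PKM2 knock-in cells. In both knock-in lines it was well above background at days 3 and 7 but not at day 0. Averaged over days they were higher, at least 2.27-fold (adjusted p = 0.137) and at least 3.04-fold (adjusted p = 0.11) over the lowest signal well above background in wild type cells. Of 22 regulators of imprints tested, such as DNA methyltransferases and the ZFP57-TRIM28 complex, 17 (77.3 percent) read higher at day 3. Of these 1 was called, Dnmt3b, a de novo methyltransferase, which rose by 2.16 ± 0.31 (4.47-fold, limma adjusted p = 0.0281). With 1 call among 21 other imprinted genes and 1 among 22 regulators, both lists were near the share of all genes called. At day 7 20 of the 22 read lower than at day 3, with a median of -0.59 against -0.13 over all genes and none called. Of 14 tested genes of the insulin-like growth factor pathway, in which Igf2, Igf2r and Grb10 act, 13 (92.9 percent) read higher at day 7 than at day 0. Their median was 0.82 and none was called. Igf1, the sister growth factor, had the smallest p there, at least 3.17-fold higher than at day 0, where it was not well above background (adjusted p = 0.124). Among the other marker lists, 10 of 10 trophoblast genes read lower at day 3 than at day 0 (median -1.19) and 7 of 10 higher at day 7 (median 1.16), none called. The medians at day 3 and day 7 were -0.28 and 0.26 for 7 mesoderm and heart genes. Of 12 pluripotency genes 8 read lower at day 3, with Klf4 and Tbx3 called, and 11 at day 7 with none called.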

How the data were processed

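RNA from 3 ES lines at days 0, 3 and 7 was read on 9 one-colour arrays (Cy3, 0.1 µg of total RNA, per the labels). The intensity values are the processed signals that the authors deposited, background-subtracted by Agilent Feature Extraction 10.10 per the file headers. The series' own value table gives these intensities again, within 0.497 percent.

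Of 62976 spots per array, 3671 controls and between 133 and 225 with a quality flag were omitted. RefSeq accessions named 27235 of 55681 probes. Each array was scaled to its 75th percentile, values under 5 were set to 5, and log2 was taken. A probe entered if well above background on 3 or more arrays, and a gene's brightest probe was used. limma 3.58.1 ran in R 4.3.3 with version 1.17.8 of data.table. No array pair held identical values.

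The members, their parental classes and clusters, and 9 lists of related and marker genes were chosen with earlier results of these data known. The result of 1 of these lists is not reported here. A member is given on every array if it was called or ranged over at least 2 log2 units, and otherwise by its range. From each list at most 4 called genes, or at most 2 with the smallest p, are named; Afp was added after its values were seen. Array coordinates (mm9) were not used, and promoter letters were searched in RefSeq sequences. The fit was tested on simulated data. Alternatives changed the background correction (normexp, offset 50), the normalization (quantile, or percentile over detected probes), the source (value table), the filter (none, or all 9 arrays), the floor (1 or 20), the probe rule (mean) and the model (slide as a block, no term for the other factor), and left out each line, day or array.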

Additional observations from a re-analysis of the deposited data

Results flagged for a closer look

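Changes that went up in one line, or on one day, and down in another by at least 1 log2 unit were found for 7 of the 30 members. With 1 array per line and day, these differences were not tested. For day 7 against day 0, Dlk1 was higher by 5.0 in the PKM1 knock-in line and lower by -2.84 in the PKM2 knock-in line, which are 7.84 apart. Cdkn1c gave 3.85 and -1.14 in the same lines, 4.99 apart. Against day 3 it gave 2.03 and -1.54, 3.57 apart, and Meg3 gave 1.51 and -1.14, 2.65 apart. Asb4 differed from day 3 by 4.56 in the wild type and -1.29 in the PKM2 knock-in line, 5.85 apart, the last day 7 array not being well above background.

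Between lines, the PKM2 knock-in line less wild type was 1.63 at day 0 and -2.95 at day 7 for Cdkn1c, 4.58 apart, and 2.16 at day 3 and -1.09 at day 7 for Peg3, 3.25 apart. Against the PKM1 knock-in line the values were 2.29 at day 0 and -2.70 at day 7 for Cdkn1c, 4.99 apart, and 1.17 and -4.95 for Igf2, 6.12 apart, with the PKM1 knock-in day 0 array not well above background. All of these rest on the PKM2 knock-in day 7 array. Zim1, near background, was 2.27 higher at day 7 than at day 0 in the wild type line and differed by -1.43 in the PKM1 knock-in line, 3.70 apart. Against day 3 it gave 1.04 and -1.59, 2.63 apart, and the PKM1 knock-in line less wild type was 1.31 at day 0 and -2.39 at day 7, also 3.70 apart.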

How the results depend on the processing

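The number of members called depended most on single arrays. At day 3 against day 0 the count of 4 was 0 without a filter, where 125 of 20660 genes (0.605 percent) were called, 2 with the slide as a block (3.82 percent of all genes), 2 without the term for the other factor (3.15 percent), and 0 to 6 when a line, day or array was left out (0 to 8.77 percent). It was 3 with quantile normalization, the percentile over detected probes, the filter on all 9 arrays and the mean of probes (2.94 to 5.29 percent). At day 7 it was 0 to 4 against day 0 and 0 to 11 against day 3 when a line or array was left out, and 7 against day 3 with the slide as a block, from 0 in both; the added calls came with the PKM2 knock-in day 7 array left out. In the comparisons of lines no alternative changed the count. The difference between paternally and maternally expressed genes at day 3 was -0.13 with a filter on all 9 arrays and -0.18 with the mean of probes. At day 7 against day 0 it was 0.26 with normexp, 0.27 with the filter on all 9 arrays, 0.26 with the mean of probes and 0.37 with the slide as a block, and at day 7 against day 3 0.52, 0.29 and 0.48 under the first 3 of these, 0.50 with quantile normalization and 1.07 without a filter. Between the knock-in lines it was -0.45 with the slide as a block. With an array or line left out it ranged from -0.90 to -0.30 at day 3, -0.14 to 0.46 and 0.48 to 0.80 at day 7 against day 0 and day 3, and -0.46 to -0.08 between the knock-in lines. Of the genes quoted, Meg3 at day 7 against day 0 reversed once, to 0.07 without the PKM2 knock-in line, and ranged down to -2.08 without the PKM1 knock-in line. The cause was not tested. The labels carry no replicate numbers; the line term pairs the days within lines, and the day term the lines within days.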
